A study of Mus musculus with 43 samples.

Results

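The effector and inflammatory cytokine genes described here are Ifng, Il6, Il10, Il12a, Il12b, Il27, Tnf, Csf1 and Csf2, which are 9 of the 19752 mouse genes that could be named on the array. They were chosen by symbol, and each was measured by 1 probe set. RNA levels were measured on 43 Affymetrix Mouse Gene 1.0 ST arrays of 9 immune cell types sorted from male C57BL/6 mice aged 6 weeks. On 17 arrays the cells came from mice given 10000 U of interferon-alpha under the skin and examined 2 hours later. The other 26 arrays are labelled as baseline, and no vehicle injection is given for them, so the injection and the interferon cannot be told apart. Interferon arrays numbered 2 in each cell type except macrophages, which had 1. Baseline arrays numbered 3 in each cell type except neutrophils, which had 2.

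The lymphocytes were NK (natural killer) cells, NKT cells, gamma-delta T cells, CD4+ and CD8+ T cells and regulatory T cells (CD4+ CD25+). The myeloid cells were dendritic cells (CD11c+), macrophages of the peritoneal cavity and neutrophils (Ly6G+), all sorted on surface markers. Cells other than macrophages were labelled as splenic, but 2 of the 3 baseline CD8+ arrays carried a blood source name, and the preparation text of 2 baseline macrophage arrays spoke of spleen. The preparation text also differed between baseline arrays 1 and 2 and most of the others, so that treatment and preparation overlapped. The labels do not say whether each array had its own animal, and the p-values below therefore measure array-to-array spread, which may be technical. The median of the neutrophil markers was at least 12.47 on neutrophil arrays and at most 7.59 on all others, on the log2 intensity scale used for every level here. The macrophage markers had a median of at least 11.46 on macrophage arrays and at most 9.46 elsewhere, the highest of these being NKT interferon array 1. Foxp3, the defining factor of regulatory T cells, averaged 11.97 in interferon and 11.98 in baseline regulatory T cells.

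Cytokines are secreted proteins by which immune cells instruct each other. Type I interferon acts through a receptor found on nearly all cells and leads to the activation of genes with interferon-stimulated response elements (ISRE) in their promoters. Interferon-gamma is the main effector cytokine of NK cells and T cells, and it arms macrophages. TNF and IL-6 drive inflammation, the IL-12 family (IL-12 and IL-27 among them) passes signals from myeloid cells to lymphocytes, and IL-10 restrains responses. CSF1 (M-CSF) maintains macrophages, and CSF2 (GM-CSF) acts on granulocytes, macrophages and dendritic cells. Many cytokine genes are held low at rest and are switched on through NF-kappaB, AP-1 or STAT sites.

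Start-site windows of 300 bases (250 before the start and 50 after it) were read from RefSeq for the GRCm38.p6 build. They were found for 7 of the 9 genes, as 8 windows, since Il12a had 2. The 4 motifs below were searched on both strands. The ISRE core (GAAA repeated after a gap of 2 bases) stood in 3.44% of all 32851 windows and in 0 of the 8 windows of these genes. The gamma-activated site TTCNNNGAA stood in 8.3% of all windows and in 1 of the 8, that of Ifng. The NF-kappaB form (GGGA, a gap of 2 bases, then TTCC) stood in 1.47% of all windows and in 2 of the 8, those of Csf1 and Il6. The AP-1 form TGANTCA stood in 7.81% of all windows and in 1 of the 8, that of Il6. The AP-1 and NF-kappaB matches of Il6 did not overlap. A match is a run of letters, not a measured site, and no match says only that these letters are not in this window. The 250 bases before the start are given for the 3 genes with a match, and the match was the only reason for printing them. Matched motifs are in capitals, and the bases read 5′ to 3′ on the strand of the gene. The Csf1 stretch is chr3:107760470-107760719 on the minus strand (NF-kappaB, matched on the opposite strand), the Il6 stretch is chr5:30012864-30013113 on the plus strand (AP-1, then NF-kappaB), and the Ifng stretch is chr10:118440796-118441045 on the plus strand (gamma-activated site).
Csf1: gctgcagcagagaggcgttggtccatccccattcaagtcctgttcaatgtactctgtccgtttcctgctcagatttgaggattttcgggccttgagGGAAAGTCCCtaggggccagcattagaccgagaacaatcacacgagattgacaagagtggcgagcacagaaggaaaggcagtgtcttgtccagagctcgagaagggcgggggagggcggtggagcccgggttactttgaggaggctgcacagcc
Il6: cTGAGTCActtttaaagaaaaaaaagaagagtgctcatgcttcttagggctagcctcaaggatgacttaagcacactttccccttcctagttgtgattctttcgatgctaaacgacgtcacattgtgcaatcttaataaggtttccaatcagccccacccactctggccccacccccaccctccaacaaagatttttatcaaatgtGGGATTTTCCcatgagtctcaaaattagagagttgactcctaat
Ifng: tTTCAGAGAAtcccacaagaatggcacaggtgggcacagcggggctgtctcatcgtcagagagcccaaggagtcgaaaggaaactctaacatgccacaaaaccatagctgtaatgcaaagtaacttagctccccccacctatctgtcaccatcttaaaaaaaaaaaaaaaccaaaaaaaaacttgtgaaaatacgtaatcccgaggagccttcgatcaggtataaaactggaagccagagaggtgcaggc

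Interferon raised 7 of the 9 cytokine genes in at least 1 cell type, in 20 of the 81 pairs of gene and cell type, and lowered none of them by the rule used here. Csf1 was raised in 7 cell types, Ifng in 5, Il6, Il10 and Il27 in 2 each, and Tnf and Csf2 in 1 each, while Il12a and Il12b were raised in none. A gene was called where limma's Benjamini-Hochberg adjusted p over all 19752 genes was under 0.05 and the log2 change reached 1, that is 2-fold. Over all genes, 5.39% were raised in at least 1 cell type, 1.64% of pairs were raised and 0.659% were lowered. Of the 81 pairs, 1 had a fall with an unadjusted p under 0.05, Tnf in neutrophils. The called changes ran between 1.01 and 2.37. In all 20 pairs the interferon arrays lay above every baseline array, but the calling rule itself favours this, so it is no separate support. Of the 81 changes, 70 were above 0. The share of all genes above 0 was not counted, and their median change lay between -0.10 and 0.08 by cell type. In sorted bulk samples, fewer expressing cells and less RNA per cell cannot be told apart.

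The number of members raised ran from 1 to 4 per cell type. Dendritic cells raised 4 of the 9 (Il6, Il27, Tnf and Csf1) where 2.34% of all genes rose, NK cells raised 3 (Ifng, Csf1 and Csf2) where 1.25% rose, and NKT cells raised 3 (Ifng, Il10 and Csf1) where 2.89% rose. CD4+ T cells raised 2 (Ifng and Csf1; 0.901% of all genes), gamma-delta T cells raised the same 2 (1.53%), regulatory T cells raised Il10 and Csf1 (1.11%), and macrophages raised Il6 and Csf1 (1.35%). CD8+ T cells raised Ifng alone (1% of all genes) and neutrophils raised Il27 alone (2.43%). The median change of the 9 genes was 0.80 in dendritic cells, 0.68 in NK cells, 0.31 in regulatory T cells and 0.30 in NKT cells. It was 0.24 in CD8+ T cells, 0.23 in CD4+ T cells, 0.21 in macrophages and in gamma-delta T cells, and 0.17 in neutrophils. The median over all genes lay between -0.10 in NKT cells and 0.08 in neutrophils. Macrophages had 1 interferon array, so their calls borrow the spread of the other groups. None of the 9 genes was lowered in any cell type, where lowered genes made up 0.0658% of all genes in CD4+ T cells, 0.319% in CD8+, 0.0253% in regulatory and 0.683% in gamma-delta T cells, 0.537% in NK and 0.38% in NKT cells. The share was 0.81% for dendritic cells, 0.263% for macrophages and 2.85% for neutrophils.

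The position of single arrays gave a second view of the same values. Interferon arrays lay above every baseline array for 8 of the 9 genes in regulatory T cells (17.3% of all genes did so) and for 6 in dendritic cells (17%). They did so for 5 genes in NK cells (13.4%) and 5 in neutrophils (29.6%), and for 4 genes each in CD8+ T cells (11.9%), NKT cells (12.4%) and macrophages (16.1%). In CD4+ T cells (11.3%) and gamma-delta T cells (10.7%) 3 genes did so. Tnf alone showed the opposite, with interferon arrays below every baseline array in neutrophils (24.7% of all genes lay below) and in macrophages (23.1%), which had 1 interferon array. Each change was also set against the mean change of the other 8 cell types. By the same rule 4 of the 81 pairs were higher and 1 was lower, where 0.288% of all pairs were higher and 0.222% lower, and these 5 are given with their genes.

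**Figure D1:**
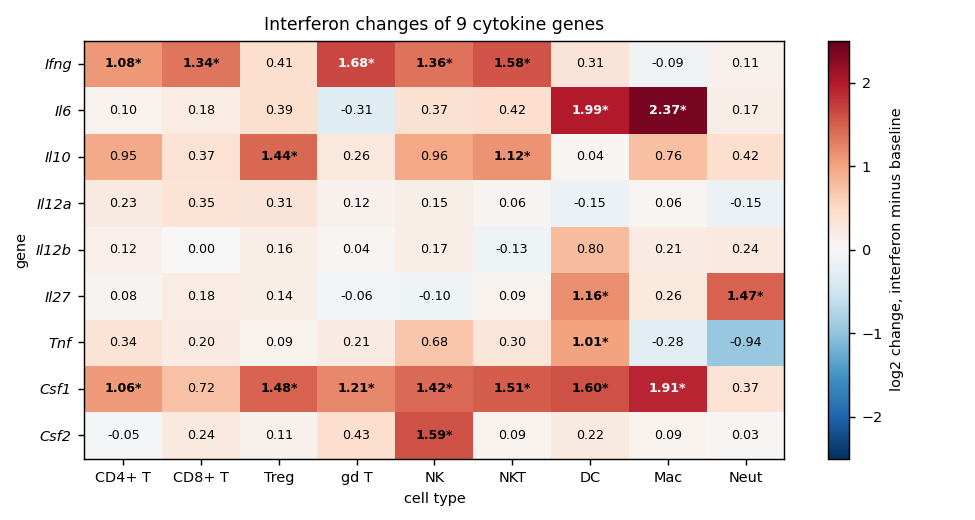
Heat map of the interferon minus baseline change (log2 intensity) for the 9 cytokine genes in rows and the 9 cell types in columns, with a star on each called pair. Csf1 is called across 7 columns and Ifng across 5 lymphocyte columns, while Il6 is called in dendritic cells (1.99) and macrophages (2.37) only.

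Csf1 (probe set 10501164), the growth and survival factor of macrophages, was raised in the most cell types. In dendritic cells it stood at 8.30 and 8.46 on the interferon arrays and at 6.86, 6.82 and 6.66 on the baseline arrays, a 3.03-fold rise (log2 change 1.60, SE 0.214, limma adjusted p = 1.54e-06). In macrophages the single interferon array read 9.57 and the baseline arrays 7.41, 7.85 and 7.72, a 3.76-fold rise (1.91, SE 0.271, limma adjusted p = 9.52e-06). In regulatory T cells the interferon arrays read 8.90 and 9.52, against 7.57, 7.68 and 7.96 at baseline (1.48, limma adjusted p = 1.46e-05). The interferon arrays lay well clear of the baseline arrays in all 3 of these cell types.

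Csf1 was also raised in 4 further lymphocyte types. NKT cells read 9.01 and 8.93 with interferon and 7.12, 7.35 and 7.90 at baseline (1.51, limma adjusted p = 4.84e-06). NK cells read 8.38 and 8.30 with interferon and 6.82, 7.18 and 6.76 at baseline (1.42, limma adjusted p = 2.51e-05). Neither pair of groups overlapped. On NK arrays the summed linear intensity of the macrophage markers was 1250 to 1434 with interferon and 804 to 1078 at baseline, with 0 of the 10 called. That of the dendritic cell markers was 2128 to 2353 with interferon and 3550 to 4579 at baseline, with 1 of the 10 lowered. The dendritic cell list is not particular to these cells, since it read 9424 to 10265 on baseline CD8+ T cell arrays. The part of macrophages and dendritic cells in the NK value was not tested. Gamma-delta T cells read 8.17 and 8.04 with interferon and 6.97, 6.56 and 7.16 at baseline (1.21, limma adjusted p = 0.000254), and CD4+ T cells read 7.68 and 8.08 with interferon and 6.83, 6.55 and 7.11 at baseline (1.06, limma adjusted p = 0.00272). In CD8+ T cells the change was 0.72 (limma adjusted p = 0.0623) and was not called. Against baseline array 3 alone, which shares the preparation text of most interferon arrays, the change was 0.78 in CD4+ T cells (limma adjusted p = 0.188) and 0.95 in gamma-delta T cells (limma adjusted p = 0.0293), so neither kept its call. The CD4+ call was also lost without interferon array 2 (0.86, limma adjusted p = 0.156) and without baseline array 2 (0.92, limma adjusted p = 0.0365).

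Neutrophils held by far the highest Csf1 level before any interferon. They read 10.77 and 11.13 with interferon and 10.67 and 10.49 at baseline, a change of 0.37 (SE 0.234, limma adjusted p = 0.359) that was not called although the groups did not overlap. Their baseline mean of 10.58 was 2.85 above the next cell type, regulatory T cells at 7.73 (limma adjusted p = 3.83e-13). It was also above the interferon means of the other 8 cell types, which ran between 7.25 and 9.57. The neutrophil change was 0.99 below the mean change of the other 8 (limma adjusted p = 0.0136), just short of the 2-fold rule. Further down the baseline order, the steps from regulatory T cells to macrophages (7.66) and on to NKT cells (7.46) did not pass. NKT cells stood above NK cells (6.92, limma adjusted p = 0.0472). After NK cells, gamma-delta T cells, CD4+ T cells, dendritic cells and CD8+ T cells (6.52) followed with no step that differed.

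Over the 9 cell types together Csf1 was the 1 gene of the set raised on average, by 1.25 (SE 0.0744, limma adjusted p = 1.32e-15), where 1.26% of all genes were raised and 0.0658% lowered. In all 9 cell types its interferon arrays lay above its baseline arrays, as for 1.15% of all genes, and 0.785% of all genes were raised in 7 or more cell types. The effect still differed between cell types by limma's F test (adjusted p = 0.0444), which 4.16% of all genes passed. The genes whose 18 group means ran most like those of Csf1 were Phyh, a peroxisomal enzyme of fatty acid oxidation (Pearson r = 0.907), and Tmem140, a membrane protein gene (r = 0.899). These r values are descriptions over group means that share arrays.

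**Figure D2:**
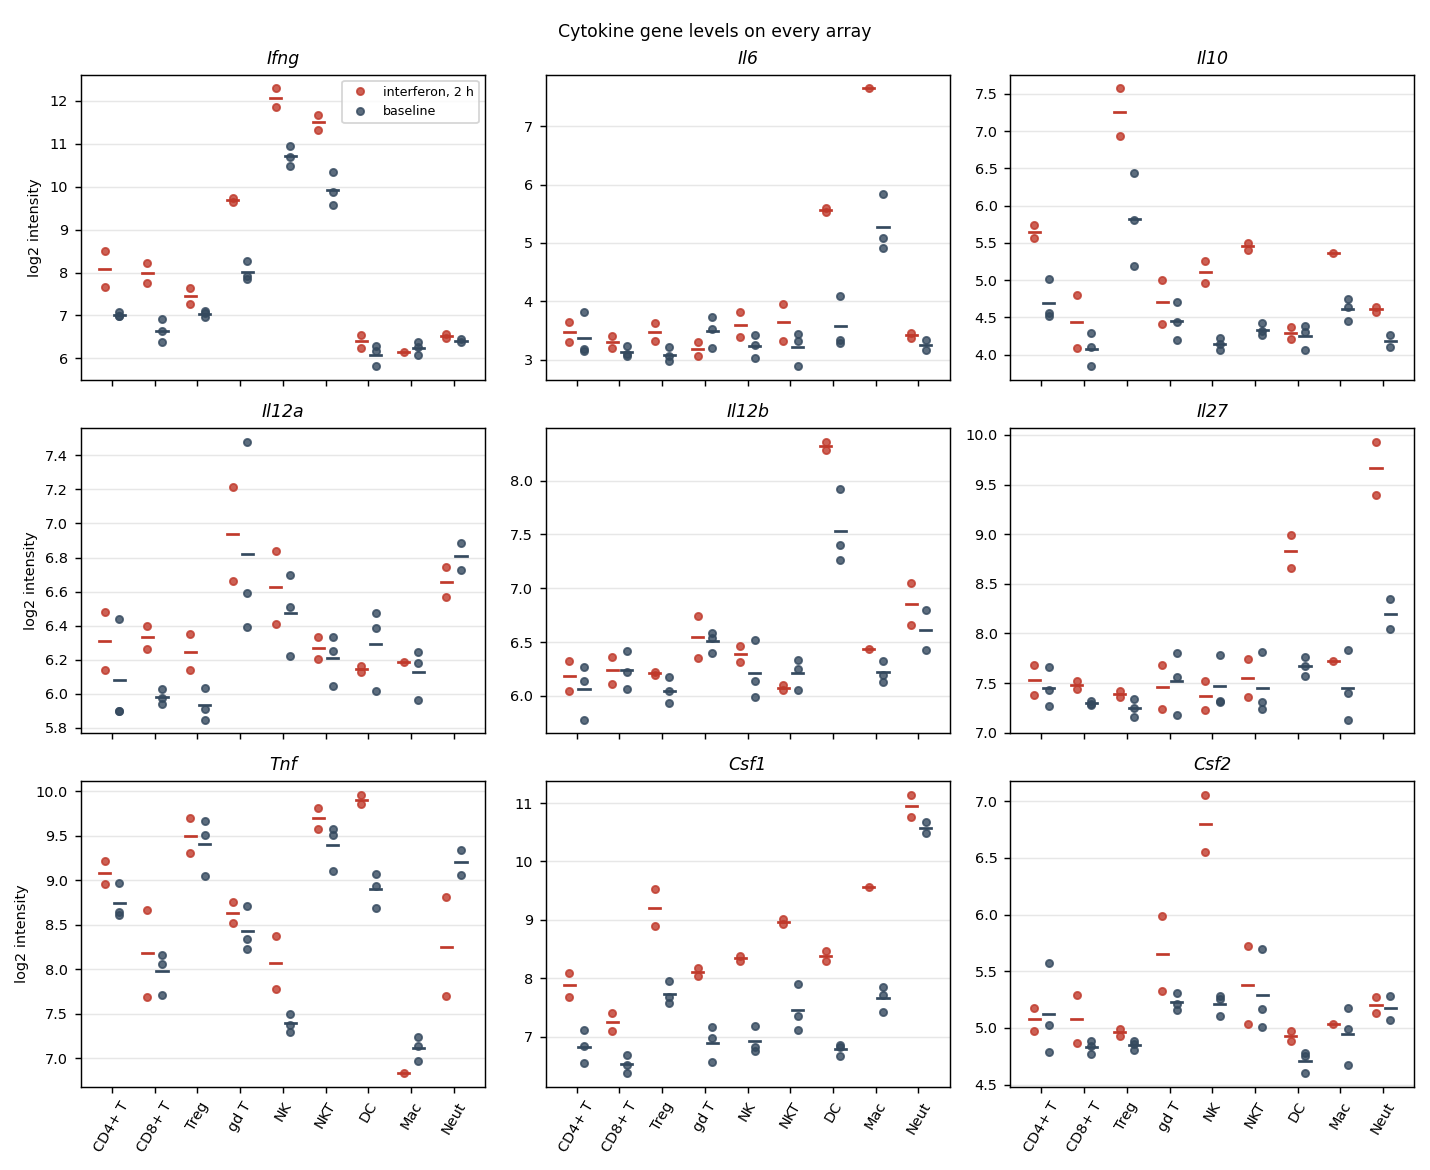
Log2 intensity of each of the 9 genes (panels) in the 9 cell types, with 1 point per array, interferon arrays in red to the left of baseline arrays in dark grey. Neutrophil Csf1 sits at 10.49 to 11.13, NK and NKT cells hold the highest Ifng, and both interferon NK arrays lie above all other arrays for Csf2.

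Csf2 (probe set 10385912), the granulocyte and macrophage growth factor GM-CSF, was raised in NK cells and in no other cell type. NK cells read 6.55 and 7.05 with interferon and 5.28, 5.25 and 5.10 at baseline, a 3.01-fold rise (log2 change 1.59, SE 0.217, limma adjusted p = 4.04e-06). Both interferon arrays of NK cells lay above all other arrays, whose highest value was 5.98, on a gamma-delta T cell interferon array. The NK change exceeded the mean change of the other 8 cell types by 1.44 (limma adjusted p = 0.00243), a difference upward that 0.081% of all genes showed in NK cells. Without NK interferon array 2 that difference was 1.19 with a limma adjusted p of 0.17, while the NK rise itself kept its call. Baseline levels ran between 4.71 in dendritic cells and 5.29 in NKT cells and did not pass limma's F test (adjusted p = 0.08), a test that 56.4% of all genes passed. In the other 8 cell types the changes ran between -0.05 and 0.43, the highest in gamma-delta T cells (SE 0.217, limma adjusted p = 0.307). The nearest patterns were those of Muc1, a transmembrane mucin (r = 0.910), and Fhl2, a LIM domain protein (r = 0.872).

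Ifng (probe set 10366586), the gene of interferon-gamma, was raised in 5 of the 6 lymphocyte types and was not called in the myeloid cells. Before interferon the order was NK cells at 10.70, NKT cells at 9.92, gamma-delta T cells at 8.02 and regulatory T cells at 7.04. Each of these steps was larger than the spread between arrays (limma adjusted p = 0.00456 for NK above NKT cells, 2.30e-08 for NKT above gamma-delta T cells and 0.000828 for gamma-delta above regulatory T cells). CD4+ T cells (7.01), CD8+ T cells (6.64), neutrophils (6.42), macrophages (6.24) and dendritic cells (6.09) followed, and no step between these neighbours passed.

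The 3 cell types with the highest baseline levels were all raised. NK cells read 11.85 and 12.28 with interferon and 10.95, 10.68 and 10.47 at baseline, a 2.57-fold rise (1.36, SE 0.223, limma adjusted p = 8.85e-05). NKT cells read 11.32 and 11.68 with interferon and 9.57, 9.87 and 10.33 at baseline, a 2.98-fold rise (1.58, limma adjusted p = 4.64e-06). Gamma-delta T cells read 9.64 and 9.74 with interferon and 8.28, 7.93 and 7.85 at baseline (log2 change 1.68, limma adjusted p = 2.39e-06). In these 3 cell types the groups were well separated. NK cell markers moved in gamma-delta T cells, where 4 of the 9 were lowered and the summed linear intensity of the list was 4161 to 4668 with interferon and 5287 to 6552 at baseline. Without baseline array 1 of the gamma-delta T cells, which had the most NK marker signal, the Ifng change was 1.81 (limma adjusted p = 3.18e-06). The part of NK cells in the gamma-delta value was otherwise not tested. B cell markers varied within both groups of gamma-delta T cell arrays, with 0 of the 9 called. Their summed linear intensity was 3076 to 11364 with interferon and 3222 to 12756 at baseline, with overlap. The part of B cells in the gamma-delta values of Ifng and Csf1 was not tested.

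Conventional T cells began lower and rose too. CD8+ T cells read 8.22 and 7.75 with interferon and 6.91, 6.63 and 6.38 at baseline, a 2.54-fold rise (1.34, limma adjusted p = 0.000156). CD4+ T cells read 7.67 and 8.51 with interferon and 7.07, 6.98 and 6.98 at baseline, a 2.11-fold rise (1.08, limma adjusted p = 0.00355). Interferon array 2 carried much of the CD4+ value, since without it the change was 0.66 (limma adjusted p = 0.297), and against baseline array 3 alone it was 1.11 (limma adjusted p = 0.0619). Regulatory T cells read 7.26 and 7.65 with interferon and 7.10, 6.96 and 7.06 at baseline, a change of 0.41 (SE 0.223, limma adjusted p = 1.00) that was not called. Dendritic cells, macrophages and neutrophils changed by 0.31, -0.09 and 0.11. The effect differed between cell types by limma's F test (adjusted p = 0.000592), but no single cell type differed from the mean of the other 8 by the calling rule, the nearest being neutrophils (-0.85, limma adjusted p = 0.0528). The nearest patterns were those of Gzma, a cytotoxic granule protease (r = 0.945), and Fasl, the death ligand of cytotoxic lymphocytes (r = 0.940).

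Il6 (probe set 10520452), the acute-phase inflammatory cytokine, gave the largest changes of the set, in macrophages and dendritic cells. The interferon macrophage array read 7.65 and the baseline arrays 4.91, 5.08 and 5.84, a 5.18-fold rise (log2 change 2.37, SE 0.316, limma adjusted p = 3.33e-06). Dendritic cells read 5.60 and 5.53 with interferon and 3.34, 3.28 and 4.10 at baseline, a 3.97-fold rise (1.99, SE 0.250, limma adjusted p = 4.25e-07). The groups did not overlap in either cell type. Macrophages (5.27) already stood above dendritic cells (3.57) at baseline (limma adjusted p = 1.57e-07), and no later step in the baseline order passed, down to regulatory T cells at 3.08. In the other 7 cell types no array exceeded 3.95, and their changes ran between -0.31 and 0.42.

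The Il6 response of these 2 cell types differed from that of the rest. The macrophage change exceeded the mean change of the other 8 by 1.96 (limma adjusted p = 0.000867), where 0.258% of all genes did so upward, and the dendritic cell change did so by 1.53 (limma adjusted p = 0.00042), where 0.896% did. With a pseudocount of 16 the dendritic cell difference was 0.86 (limma adjusted p = 0.000358), short of the 2-fold rule. The summed linear intensity of the macrophage markers on dendritic cell arrays was 3114 to 4000 with interferon and 3548 to 4749 at baseline, with overlap, and 1 of the 10 was raised. The part of macrophages in the dendritic cell value was not tested. The files give no detection call, and values near 3 lie among the lowest on these arrays, so a small change in the other cell types may not be measurable. The nearest patterns were those of Nfxl1 (r = 0.960) and Tex14 (r = 0.943), a gene named for its expression in testis.

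Tnf (probe set 10450501), the central inflammatory cytokine of macrophages and T cells, moved in opposite directions in dendritic cells and neutrophils. Dendritic cells read 9.86 and 9.95 with interferon and 8.68, 8.94 and 9.07 at baseline, a 2.01-fold rise that just met the rule (log2 change 1.01, SE 0.259, limma adjusted p = 0.0103). That call was lost with a preparation term (0.93, limma adjusted p = 0.0316), against baseline array 3 alone (0.84, limma adjusted p = 0.401), and without interferon array 1 (limma adjusted p = 0.0653), interferon array 2 (limma adjusted p = 0.156) or baseline array 1 (0.90, limma adjusted p = 0.0651). The interferon arrays lay above all baseline arrays, but by less than in the Il6 comparison.

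Neutrophils read 7.70 and 8.81 for Tnf with interferon and 9.06 and 9.34 at baseline, a change of -0.94 (SE 0.283, limma adjusted p = 0.024) that stopped short of the 2-fold rule. Their interferon arrays lay below their baseline arrays but far from each other. Without interferon array 2 the change was -1.50 (limma adjusted p = 0.000995) and met the rule, and over all single arrays left out it ran between -1.50 and -0.39. The neutrophil change was 1.26 below the mean change of the other 8 cell types (difference -1.26, limma adjusted p = 0.00878), where 1.31% of all genes were lower in that way. The difference was -0.71 without neutrophil interferon array 1 (limma adjusted p = 0.424) and -1.12 without baseline array 2 (limma adjusted p = 0.114). B cell markers moved with it: 6 of the 9 were lowered in neutrophils, and their summed linear intensity was 768 to 843 with interferon and 2956 to 5154 at baseline. Of the 10 dendritic cell markers 2 were lowered in neutrophils, and their summed linear intensity was 1304 to 1563 with interferon and 2424 to 2460 at baseline. The part of these cells in the Tnf value was not tested.

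Tnf was otherwise spread widely at baseline. The order ran from regulatory T cells (9.41) and NKT cells (9.39) through neutrophils (9.20), dendritic cells (8.90), CD4+ T cells (8.74), gamma-delta T cells (8.43), CD8+ T cells (7.98) and NK cells (7.39) to macrophages (7.12). No neighbouring pair differed, but cell types further apart did. Regulatory T cells stood 2.29 above macrophages (limma adjusted p = 4.34e-10), and baseline levels differed by limma's F test (adjusted p = 3.58e-11). In NK cells the change was 0.68 (SE 0.259, limma adjusted p = 0.172), and in the remaining 6 cell types it ran between -0.28 in macrophages and 0.34 in CD4+ T cells. The nearest patterns were those of Egr3, an early growth response factor (r = 0.857), and Nxpe3 (r = 0.807), the weakest likeness among the nearest patterns of the 9 genes.

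The IL-12 family divided by subunit. Il12a (probe set 10492540) encodes the p35 chain of IL-12, Il12b (probe set 10375331) the p40 chain shared by IL-12 and IL-23, and Il27 (probe set 10567987) the p28 chain of IL-27. Il27 rose in neutrophils and dendritic cells, Il12b moved below the rule in dendritic cells, and Il12a was not called anywhere.

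Neutrophils read 9.40 and 9.93 for Il27 with interferon and 8.05 and 8.35 at baseline, a 2.76-fold rise (log2 change 1.47, SE 0.233, limma adjusted p = 2.48e-05). Dendritic cells read 8.66 and 8.99 with interferon and 7.76, 7.67 and 7.57 at baseline, a 2.23-fold rise (1.16, SE 0.212, limma adjusted p = 0.000247). These were the cell types with the highest baseline means, 8.20 in neutrophils and 7.67 in dendritic cells. No neighbouring step of the baseline order passed (neutrophils above dendritic cells, limma adjusted p = 0.0566). Neutrophils did stand above each of the other 7 cell types, with limma adjusted p between 0.000449 and 0.0125. Baseline levels also differed by limma's F test (adjusted p = 0.0163). The neutrophil change exceeded that of the other 8 by 1.25 (limma adjusted p = 0.0014), where 1.04% of all genes did so upward. That difference was 0.98 without neutrophil interferon array 2 (limma adjusted p = 0.0348) and 1.10 without baseline array 1 (limma adjusted p = 0.0527). The dendritic cell difference was 0.90 (limma adjusted p = 0.0231), short of the rule, and without dendritic cell interferon array 2 the rise itself was 0.99 (limma adjusted p = 0.0335). Beside the lower B cell and dendritic cell markers given above, the summed linear intensity on neutrophil arrays was 3113 to 3117 with interferon and 1617 to 2253 at baseline for the monocyte markers (0 of 5 called), and 2253 to 3198 with interferon and 1874 to 1967 at baseline for the macrophage markers (1 of 10 raised, 1 lowered). The part of these cells in the Il27 value was not tested. In the other 7 cell types the changes of Il27 ran between -0.10 and 0.26.

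Il12b stood highest in dendritic cells, at 8.36 and 8.29 with interferon and 7.40, 7.26 and 7.92 at baseline. The change was 0.80 (SE 0.186, limma adjusted p = 0.00415), a 1.74-fold difference with no overlap that passed the p threshold but not the 2-fold rule. At baseline dendritic cells (7.53) stood above neutrophils (6.61, limma adjusted p = 0.000168), and no later step passed. Elsewhere the changes ran between -0.13 and 0.24. Il12a levels stayed between 5.85 and 7.48 on all 43 arrays, and its changes ran between -0.15 and 0.35 with SEs of 0.221 to 0.280. By limma 0 of its 9 changes passed, and 0 had an unadjusted p under 0.05.

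The chains that pair with these products did not pass the rule in any cell type. Ebi3, which joins p28 to form IL-27, averaged 10.31 with interferon and 10.43 at baseline in neutrophils, and 9.27 with interferon and 9.43 at baseline in dendritic cells. Il23a, which joins p40 to form IL-23, averaged 5.88 with interferon and 5.42 at baseline in dendritic cells (change 0.46, limma adjusted p = 0.112), the 1 of these 18 values with an unadjusted p under 0.05. Neutrophils and dendritic cells, the cell types that raised Il27, were also those with the highest Ebi3 means. The nearest patterns were those of Mcmdc2 (r = 0.960) and Nod2, a sensor of bacterial peptidoglycan (r = 0.959), for Il27, those of Htr7, a serotonin receptor (r = 0.976), and Mab21l3 (r = 0.971) for Il12b, and those of Kcnj1, a potassium channel (r = 0.910), and Ubqlnl (r = 0.904) for Il12a.

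Il10 (probe set 10349603), the main cytokine that restrains immune responses, was raised in regulatory T cells and NKT cells. Regulatory T cells read 6.94 and 7.57 with interferon and 5.81, 5.19 and 6.44 at baseline, a 2.71-fold rise (log2 change 1.44, SE 0.245, limma adjusted p = 0.000196). NKT cells read 5.41 and 5.50 with interferon and 4.26, 4.43 and 4.32 at baseline, a 2.17-fold rise (1.12, limma adjusted p = 0.00247). With a pseudocount of 16 the NKT change was 0.72 (limma adjusted p = 0.00779) and lost its call. The NKT arrays were tight within each group, whereas baseline regulatory T cells spread widely. In regulatory T cells the change against baseline array 3 alone was 0.81 (limma adjusted p = 0.399), and without interferon array 2 it was 1.12 (limma adjusted p = 0.0834), so both ended the call.

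Il10 came close to the rule in further lymphocytes. CD4+ T cells read 5.56 and 5.74 with interferon and 4.56, 4.52 and 5.02 at baseline (0.95, limma adjusted p = 0.0331), and NK cells read 4.97 and 5.26 with interferon and 4.07, 4.22 and 4.15 at baseline (0.96, limma adjusted p = 0.0173). The groups did not overlap in either cell type, and all 9 changes of Il10 were above 0, the lowest 0.04 in dendritic cells. The effect was not shown to differ between cell types (limma F test, adjusted p = 0.0946). At baseline regulatory T cells (5.81) stood above CD4+ T cells (4.70, limma adjusted p = 0.00125), and no later step passed, down to CD8+ T cells at 4.08. The nearest patterns were those of Slc39a8, a zinc importer (r = 0.935), and Itgb8, an integrin chain that activates TGF-beta (r = 0.849).

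Macrophage markers moved with the NKT values. In NKT cells 2 of the 10 macrophage markers were raised, and their summed linear intensity was 4327 to 7965 with interferon and 1830 to 4930 at baseline. Macrophages themselves averaged 5.37 for Il10 and 9.57 for Csf1 with interferon, and 4.61 for Il10 and 7.66 for Csf1 at baseline. Without NKT interferon array 1, which had the most macrophage marker signal, the NKT changes were 1.16 for Il10 (limma adjusted p = 0.0315) and 1.47 for Csf1 (limma adjusted p = 0.000728). The part of macrophages in these values was otherwise not tested.

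Receptor chains of these cytokines moved in both directions. Of 15 receptor genes measured, 3 were raised and 3 were lowered in at least 1 cell type, where 5.39% of all genes were raised and 4.62% lowered. Il12rb1, the receptor chain shared by IL-12 and IL-23, was raised in NK cells (10.12 with interferon, 8.77 at baseline, change 1.36, limma adjusted p = 1.97e-06), regulatory T cells (1.05) and CD8+ T cells (1.04). Il10ra, the ligand-binding chain of the IL-10 receptor, was raised in NKT cells (1.27), gamma-delta T cells (1.03) and neutrophils (1.03), and Il6st, the signalling chain gp130 of the IL-6 family, was raised in NKT cells (1.04) and NK cells (1.02). The other 9 receptor genes were called in no cell type.

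Ifngr1, the ligand-binding chain for interferon-gamma, was lowered in dendritic cells (10.82 with interferon, 11.97 at baseline, change -1.16, limma adjusted p = 1.60e-05), where 0.81% of all genes fell. Ifngr2, its partner chain, was lowered in neutrophils (-1.49, limma adjusted p = 0.00178), where 2.85% of all genes fell. The part of B cells and dendritic cells, whose markers were lower on interferon neutrophil arrays, in the Ifngr2 value was not tested. Il6ra, the IL-6 binding chain, was lowered in CD8+ T cells (-1.21, limma adjusted p = 0.00549), where 0.319% fell. Il27ra, the specific chain of the IL-27 receptor, had changes between -0.93 and -0.42 in the 9 cell types, with a mean of -0.66 (limma adjusted p = 1.74e-07), and none met the 2-fold rule. Csf1r, the receptor of CSF1, was called in no cell type, and its changes ran between -0.90 in neutrophils and 0.55 in NKT cells.

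**Figure D3:**
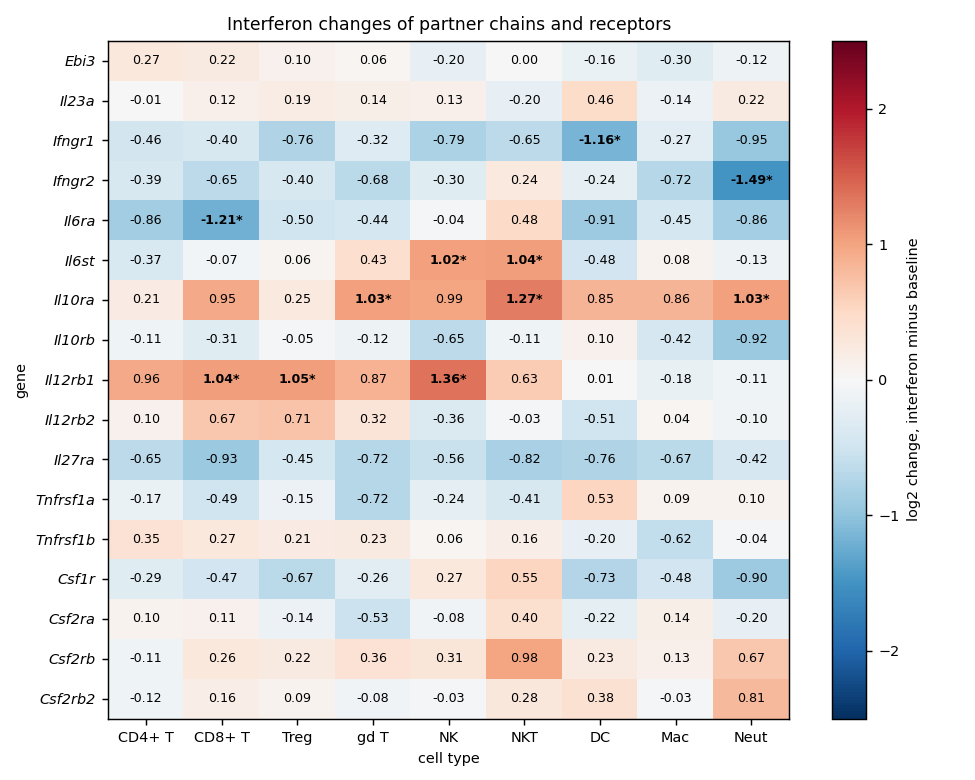
Heat map of the interferon minus baseline change (log2 intensity) for the receptor and partner chain genes in rows and the 9 cell types in columns, with a star on each called pair. Il12rb1 is called in NK cells (1.36), regulatory T cells and CD8+ T cells, and Ifngr1 (dendritic cells), Ifngr2 (neutrophils) and Il6ra (CD8+ T cells) carry the 3 falls.

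Among 20 other cytokine genes measured, 2 were raised on average (1.26% of all genes were) and 5 were raised in at least 1 cell type (5.39% of all genes). Il15, the survival cytokine of NK cells and memory CD8+ T cells, was raised in dendritic cells (2.84), NKT cells (2.70), macrophages (2.65), NK cells (2.03) and neutrophils (1.69). Il18, which acts with IL-12 to induce interferon-gamma, was raised in neutrophils (3.45), macrophages (2.57) and NKT cells (1.47). Il1a (1.67) and Il1b (1.14), the inflammatory IL-1 cytokines, were raised in NKT cells, beside the macrophage markers given above, and Lif (1.00), of the IL-6 family, in regulatory T cells. Tgfb1, a suppressive cytokine, was lowered in neutrophils (-1.52), where 2.85% of all genes fell, and in gamma-delta T cells (-1.23), where 0.683% fell. The part of other cells, whose markers were lower on interferon arrays of both cell types as given above, was not tested.

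Regulators of cytokine genes were measured beside them. Over all genes, 5.39% were raised and 4.62% were lowered in at least 1 cell type. Of 14 transcription factor genes, Irf1, an interferon-induced activator, was raised in macrophages (2.38), neutrophils (1.41), dendritic cells (1.30) and CD8+ T cells (1.12), and by 1.14 on average. Eomes, a T-box factor of cytotoxic cells, was raised in CD8+ T cells (1.53), NKT cells (1.09) and gamma-delta T cells (1.01), Irf8 and Maf were raised in NKT cells, and Prdm1 (2.06) was raised and Cebpb (-1.35) lowered in neutrophils. Of 9 genes of cytokine mRNA decay and shedding, 2 were lowered in at least 1 cell type, where 4.62% of all genes were. Zfp36l2, of the family whose proteins bind AU-rich elements and speed mRNA decay, was lowered in neutrophils (8.81 with interferon, 12.37 at baseline, change -3.56, limma adjusted p = 1.19e-09), CD8+ T cells (-1.43), dendritic cells (-1.16) and NK cells (-1.07). Its relative Zfp36l1 was lowered in neutrophils (-1.29), and Adam17, which sheds TNF from the cell surface, was called in no cell type. B cell and dendritic cell markers were lower on interferon neutrophil arrays, as given above. The part of these cells in the neutrophil values of these regulators was not tested.

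**Figure D4:**
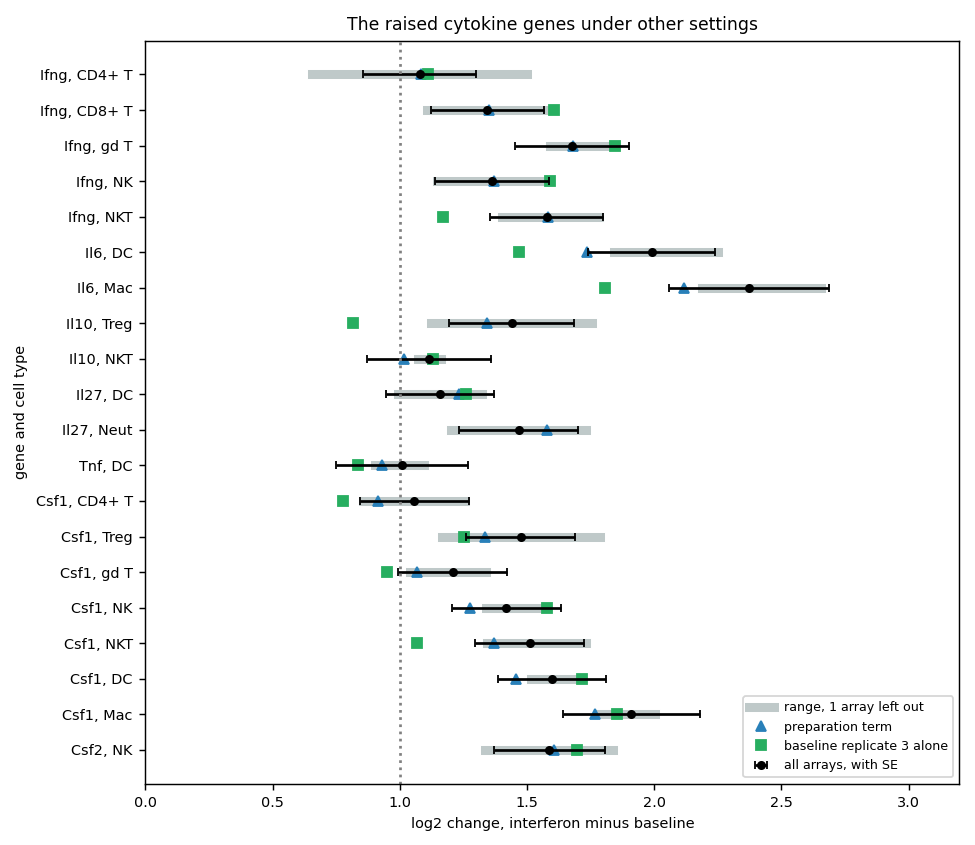
Interferon minus baseline change (log2 intensity, with SE) of the 20 called pairs, with the value under a preparation term (triangle), against baseline array 3 alone (square) and the range over leaving out single arrays (grey bar). Il6 in macrophages and dendritic cells and Csf2 in NK cells stay above 1 throughout, whereas Tnf in dendritic cells and Csf1 in CD4+ T cells do not.

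The called pairs differed in how far they held under other settings. A preparation term kept 18 of the 20 calls, and comparing with baseline array 3 alone, which neutrophils lack, kept 14 of 19. Fitting each cell type alone kept 16 of 20, losing Ifng in CD4+ T cells (limma adjusted p = 0.0813), Il10 in regulatory T cells (limma adjusted p = 0.0514), Csf1 in CD4+ T cells (limma adjusted p = 0.06) and Csf1 in gamma-delta T cells (limma adjusted p = 0.0527). Ifng in CD8+ T, gamma-delta T, NK and NKT cells and Il6 in macrophages and dendritic cells kept their calls under these 3 settings. So did Csf1 in regulatory T, NK, NKT and dendritic cells and macrophages, Csf2 in NK cells and Il10 in NKT cells. All of these also kept their calls on leaving out any single array that could be left out. Il27 in neutrophils kept its call with the preparation term, when fitted alone and on leaving out single arrays.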

How the data were processed

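The deposited table held linear intensities, 1 column per array, summarised and normalised with RMA in Affymetrix Power Tools, per the submitters' processing notes (versions not given in these sources). Array medians lay between 105 and 125. Of 24922 probe sets, 21425 carried 1 gene symbol in the platform annotation, 1399 several and 2098 none; the brightest probe set of a gene was kept, giving 19752 genes. Intensities were log2-transformed without a pseudocount and fitted with limma 3.58.1 in R 4.3.3, with 1 coefficient for each of the 18 groups (25 residual degrees of freedom), lmFit and eBayes. Contrasts were interferon minus baseline per cell type, their mean over the 9 cell types, each cell type against the mean of the other 8, and baseline levels between cell types. Calls needed an adjusted p under 0.05 over all genes and a log2 change of at least 1.

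The 9 genes and all gene lists were chosen with earlier results of these data known. The genes named were the members, the called genes of the lists of partner chains, receptors, other cytokines, transcription factors and mRNA decay, and the 2 genes nearest to each member by Pearson r over group means, plus list genes named for comparison after their values were seen. Some genes of these lists are not reported here. The number of arrays limits the precision. After the mean of each group was taken off, same-numbered interferon and baseline arrays correlated between -0.30 and 0.35 over 16 pairs. The 2 pairs of a cell type were not independent, since 2 interferon arrays deviate from their mean by equal and opposite amounts. The labels tie no numbers together. The alternatives were a preparation term, baseline array 3 alone, single-type fits, replicate blocks, a dim-gene filter, quantile normalization, other moderation, array weights, probe set means, a pseudocount and leaving out arrays. The fits were tested on simulated data.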

Additional observations from a re-analysis of the deposited data

Results flagged for a closer look

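In 5 instances the interferon effect on a cytokine gene in 1 cell type differed from the mean effect in the other 8 cell types, by limma's contrast of these effects with the p adjusted over all genes. For Il6 the difference was 1.96 in macrophages (adjusted p = 0.000867), where the change was 2.37 against a mean of 0.41 in the others, and 1.53 in dendritic cells (adjusted p = 0.00042), where the change was 1.99 against 0.46. With a pseudocount of 16 the dendritic cell difference was 0.86, short of the 2-fold rule. For Csf2 it was 1.44 in NK cells (adjusted p = 0.00243), where the change was 1.59 against 0.14. For Il27 it was 1.25 in neutrophils (adjusted p = 0.0014), where the change was 1.47 against 0.22. For Tnf it was -1.26 in neutrophils (adjusted p = 0.00878), where the change was -0.94 against 0.32. The macrophage value rests on 1 interferon array.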

How the results depend on the processing

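For the 32 single results (gene changes and differences between cell types), 1763 values were recomputed under alternatives. Of these 1721 kept their direction and their side of the threshold, 30 lost a call, 12 gained one and 0 reversed. Most of the values came from 43 fits that each left out 1 array, often of a cell type outside the result. Probe set means could hardly move genes with 1 probe set each. Many values could therefore hardly change, and the total is no measure of how well the calls hold. With a preparation term, CD4+ T cells raised 1 cytokine gene in place of 2, and 1 pair was lowered in place of 0 (Tnf in neutrophils, -1.06, adjusted p = 0.0207). Against baseline array 3 alone, CD4+ T cells raised 0, gamma-delta T cells 1 and regulatory T cells 1. The effect then differed between cell types for 1 gene in place of 6. Neutrophils have no baseline array 3, so that test left them out. It had 17 residual degrees of freedom in place of 25, and the counts come from unlike tests. With each cell type fitted alone, CD4+ T cells raised 0, gamma-delta T cells 1 and regulatory T cells 1. A pseudocount of 16 left CD4+ T cells with 0 and ended the calls of Il10 in NKT cells (0.72), Tnf in dendritic cells (0.98) and the Il6 difference in dendritic cells (0.86). Leaving out dim genes, which kept 6 of the 9 members, gave 1 raised gene in macrophages, 1 in regulatory T cells, 2 each in NK and NKT cells, 3 in dendritic cells and 2 differences from the other cell types in place of 5, since Il6, Il10 and Csf2 were no longer tested. With no minimum change, 7 genes were raised on average in place of 1, and 1 pair was lowered. An alternative chosen after seeing the data left out NKT interferon array 1, gamma-delta baseline array 1 and all neutrophil arrays. The effect then differed among the remaining cell types for 3 genes, in a test without neutrophils.

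Leaving out single arrays gave 18 to 21 raised and 0 to 1 lowered pairs. Raised genes numbered 0 to 3 in CD4+ T cells, 1 in CD8+, 1 to 2 in regulatory and 2 in gamma-delta T cells, 3 to 4 in NK and 3 in NKT cells, 2 to 4 in dendritic cells, 2 in macrophages, 1 in neutrophils and 1 on average. Between 3 and 7 genes differed in effect, against 6 with all arrays, where 4.16% of all genes did. In baseline level 7 to 9 differed, against 8 with all arrays, where 56.4% of all genes did. From 4 to 7 differences from the other cell types were called, where 0.288% of all pairs were higher and 0.222% lower with all arrays. The single macrophage interferon array could not be left out of its own comparison. With replicate number as a fixed block, 22 pairs were raised (all 20, with Il10 in CD4+ T cells at 1.00 and in NK cells at 1.01), and a random block kept all 20, but nothing pairs the arrays beyond the number. The fixed block gave 6 differences from the other cell types in place of 5, and the block changed no other call of a change between interferon and baseline. Depth does not apply to arrays, and values near the lowest intensities limit what small changes in Il6, Il10 and Csf2 can be measured.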
